A study of Mus musculus with 18 samples.

Results

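The annexins are examined here across mouse 4T1 mammary carcinoma cells, an established line derived from a BALB/c mammary tumour that metastasises when grafted into mice. The 9 genes Anxa1, Anxa2, Anxa3, Anxa4, Anxa5, Anxa6, Anxa7, Anxa8 and Anxa11 were taken by symbol from the gene count tables, and all 9 were present among 34591 symbols. They were selected on their gene counts in these same libraries, with earlier results known and no record of which comparison weighed in the choice. Their levels are therefore a description, their p-values are those of fits over all genes and no independent evidence, and no test was made on the family as a set. The 3 other mouse annexin genes were low: Anxa9 averaged 3.65 to 7.97 CPM in the 6 groups (CPM is a gene's count scaled by the normalised size of its library, and is not corrected for gene length), Anxa10 had 0 counts in 16 of 18 libraries and at most 2 in the others, and Anxa13 had 0 to 5 counts per library.

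Annexins are cytosolic proteins that bind phosphatidylserine and other acidic phospholipids when calcium rises, through a conserved core of repeated helical domains, and detach when calcium falls. Their variable N-terminal tails carry the binding sites for partners, among them the S100 proteins. In epithelial and tumour cells they are known for sealing plasma membrane lesions, organising endosomes and the cortical actin, supporting plasmin generation at the cell surface, and, once released, signalling through formyl peptide receptors.

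Poly(A) RNA was sequenced for 18 libraries in 6 groups of 3. Parental 4T1 cells received fresh RPMI medium for 24 h (untreated) or medium with 2 ng/mL recombinant human TGFb1 for 24 h. Stable lines carried either a lentiviral empty vector (EV) or a lentiviral vector for Wisp1, a secreted matricellular protein also called CCN4, and were selected with puromycin. Each stable line was grown on tissue culture plastic or on dishes coated with type I collagen, and the labels do not say whether a line was 1 clone or a pool. Nothing in the labels states that replicates were independent cultures, so p-values measure the spread between these libraries, which may be technical.

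Gene counts summed to 37552858 to 94401699 per library. The forced gene separated the groups as labelled: Wisp1 stood at 897 to 1120.5 CPM in the Wisp1 lines and at 14.1 to 72.1 CPM in the EV lines. Wisp1 was also at 9.16, 18.1 and 39.7 CPM in the untreated cultures and at 288, 376 and 611 CPM with TGFb1. All 6 epithelial markers on a fixed list (Krt8, Krt18, Epcam, Cdh1, Cldn7 and Krt14) were above 1 CPM in every group, with a summed level of 2157 to 4659 CPM. Summed leukocyte markers reached 4.21 to 21.6 CPM, summed fibroblast markers 15.7 to 64.6 CPM, and summed endothelial markers 0.139 to 0.504 CPM. Among the leukocyte markers, Cd3e had 0 counts throughout, while Cd68 averaged 4.02 to 7.91 CPM in the 6 groups. Lyz2 averaged 3.92 to 9.11 CPM in the stable-line groups, against 0.0239 CPM in untreated and 0.0079 CPM in TGFb1 cultures.

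The 9 annexins took 0.37% to 0.51% of all gene counts. Their summed level was 4372 ± 729 CPM in untreated cells (SD, n = 3 here and below), 4497 ± 755 CPM with TGFb1, 3890.3 ± 88.8 CPM in EV on plastic, 3950.2 ± 105 CPM in Wisp1 on plastic, 3886 ± 149 CPM in EV on collagen and 4072 ± 235 CPM in Wisp1 on collagen. The 6 group means of the summed level thus lay between 3886 and 4497 CPM, a span smaller than the SD of either parental group. The parental groups were more variable: the coefficient of variation of an annexin between replicates had a median of 18.1% in untreated and 16.4% in TGFb1 cultures, against 3.42% to 5.68% in the 4 stable-line groups. Replicate 3 was the lowest of the 3 for 8 of 9 annexins in both parental groups, Anxa4 being the exception in each.

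**Figure D1:**
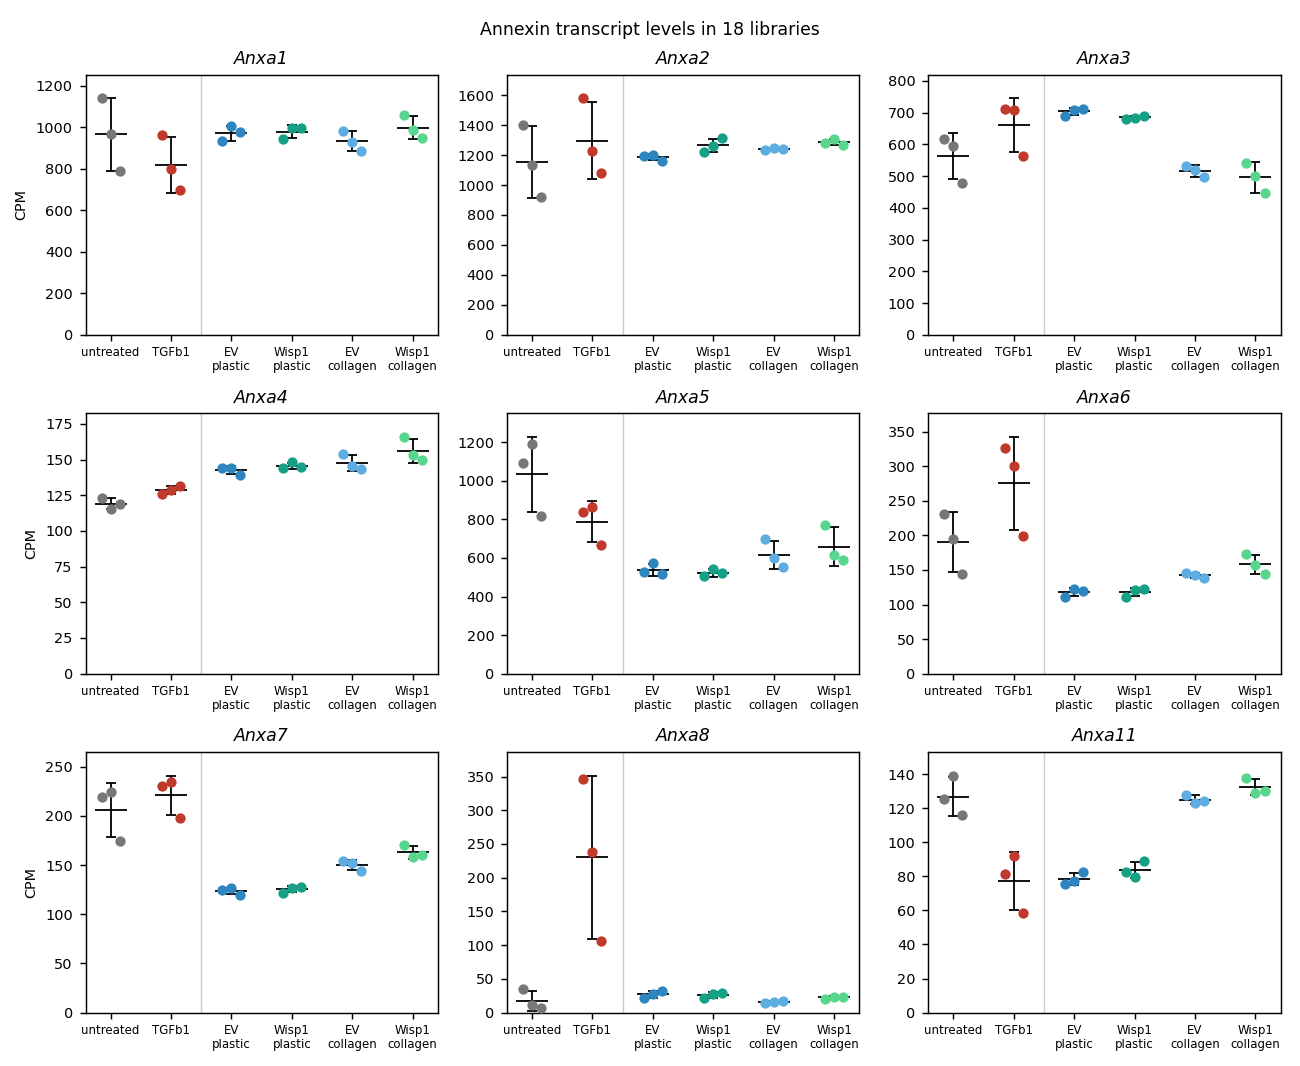
One panel per annexin with its level in CPM (linear axis from 0) in each library of the 6 groups, the horizontal line marking the mean and the bar 1 SD of 3 libraries, and a grey line parting parental from stable lines. Anxa8 runs from 6.23 CPM in an untreated library to 346 CPM with TGFb1, while every Anxa2 library lies between 917 and 1579.6 CPM.

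Levels can be set beside each other between genes only per length, and were divided by the longest protein-coding transcript of each gene in the GENCODE M21 annotation. On this scale Anxa2, which forms a heterotetramer with S100a10 that recruits plasminogen to the cell surface, was the highest member in all 6 groups, with 795.3 ± 166 CPM per kb in untreated cells. Anxa5, the phosphatidylserine-binding protein used as a probe for apoptotic cells, followed in untreated cells at 596.9 ± 112 CPM per kb and Anxa1, a glucocorticoid-induced ligand of formyl peptide receptors, at 577 ± 105 CPM per kb. The libraries of these 3 genes overlapped, so their order in untreated cells is not separated by the replicates. Anxa3 came next at 353 ± 46.3 CPM per kb, with no overlap with the genes above it or below it.

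A lower tier in untreated cells held Anxa6 at 76.4 ± 17.5 CPM per kb, Anxa7 at 70.8 ± 9.46, Anxa4 at 58.6 ± 1.89 and Anxa11 at 53.0 ± 4.80. Each of these 4 overlapped with its neighbour in the order. Anxa8, an annexin of stratified and mammary epithelium found on late endosomes, was the lowest at 9.20 ± 7.99 CPM per kb. It was ninth of 9 in every group but 1. With TGFb1 it reached 122.5 ± 64.2 CPM per kb and the fifth place by mean. Its libraries, at 56.2 to 184 CPM per kb, spanned those of Anxa6, Anxa7 and Anxa4. Its place above these members is therefore not separated by the replicates. Anxa11 was ninth with TGFb1, at 32.3 CPM per kb.

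**Figure D2:**
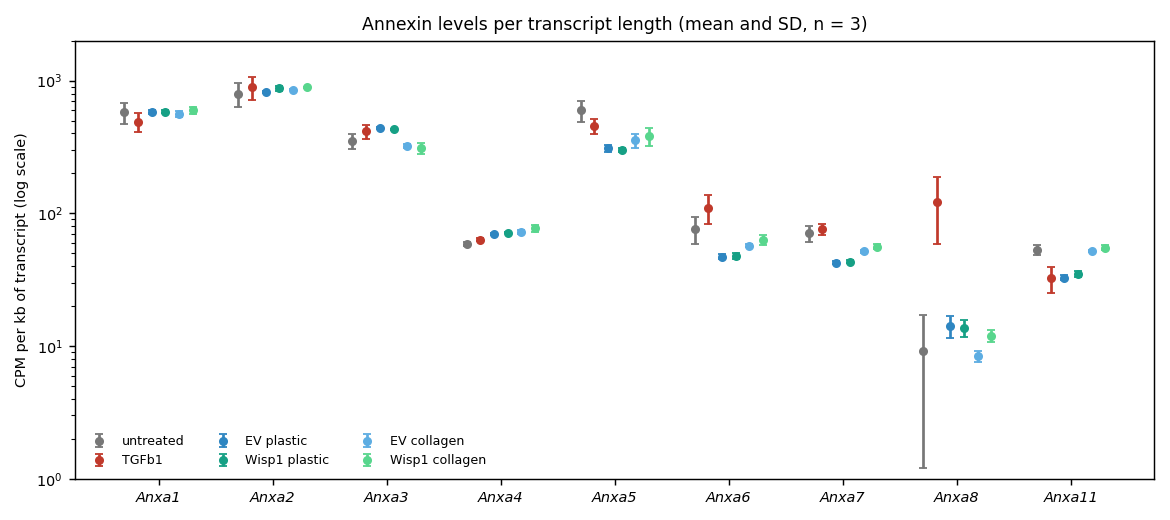
Mean CPM per kilobase of transcript for the 9 annexins in the 6 groups (log axis), with bars of 1 SD over 3 libraries. By mean, Anxa2 is highest in every group, and Anxa8 moves from the lowest place to the fifth with TGFb1. There its libraries span those of Anxa6, Anxa7 and Anxa4.

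The libraries of untreated parental cells and EV cells on plastic did not overlap for 6 of 9 annexins, 4 higher and 2 lower in untreated cells, beside 56.8% of 15032 genes (28.7% higher, 28.1% lower). Anxa5 averaged 1033 ± 193 CPM in untreated cells and 538 ± 31.9 CPM in EV on plastic, Anxa7 206 ± 27.5 and 124 ± 3.50 CPM, Anxa6 190.1 ± 43.5 and 118 ± 5.67 CPM, and Anxa11 127 ± 11.5 and 78.4 ± 3.53 CPM. Anxa3 and Anxa4 were the other way round, at 563 ± 73.8 and 119 ± 3.84 CPM in untreated cells against 704 ± 12 and 143 ± 2.74 CPM. The cells differ in vector, selection, culture and label series at once, which cannot be told apart, and no test was made across them.

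The addition of TGFb1 to parental cells was tested with edgeR's quasi-likelihood test across all genes, calling a gene at a Benjamini-Hochberg adjusted p under 0.05. TGFb1 raised Anxa8 and lowered Anxa11, 1 annexin in each direction of 9, and 7 did not pass. In all, 11.1% of the 14874 genes tested were called, 6.14% higher and 4.92% lower. The median log2 change of the 9 annexins was 0.10, beside -0.0070 over all genes tested. Groups did not overlap for 3 annexins, Anxa4 and Anxa8 being higher and Anxa11 lower, beside 30.7% of all genes (16.5% higher, 14.2% lower).

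Anxa8 measured 34.4, 11.3 and 6.23 CPM in the untreated libraries and 346, 239 and 106 CPM in the TGFb1 libraries. The groups did not overlap, and the lowest treated library was above the highest untreated one. The log2 change was 3.71 ± 0.75 (SE), a 13.1-fold increase with an adjusted p of 0.0267 (edgeR). Within the pairs of libraries that share a replicate number, Anxa8 was higher with TGFb1 by 3.33, 4.41 and 4.08 on the log2 scale. The call was lost when untreated replicate 2 (adjusted p = 0.124), untreated replicate 3 (0.0515), TGFb1 replicate 1 (0.0508) or TGFb1 replicate 2 (0.0912) was left out, with the log2 change between 3.29 and 4.71 over the 6 omissions. Markers on the cell type lists also moved with TGFb1. Of the 6 epithelial markers, all tested, Krt14, a basal keratin, rose from 8.72 ± 4.49 to 106 ± 35.0 CPM (adjusted p = 0.00604, edgeR) and the other 5 did not pass, with log2 changes of -0.56 to 0.02. Their sum was 3144 to 4659 CPM in untreated and 2157 to 4038 CPM in TGFb1 libraries. Of 3 leukocyte markers tested, Csf1r rose from 0.166 to 2.40 CPM (adjusted p = 0.00954) and Ptprc fell from 0.639 to 0.165 CPM (0.0179), with sums of 4.21 to 12.3 and 7.60 to 12.5 CPM. Of 3 fibroblast markers tested, Pdgfrb rose from 0.209 to 1.70 CPM (adjusted p = 0.0262), with sums of 34.1 to 58.5 and 40.3 to 64.6 CPM. Csf1r, Ptprc and Pdgfrb passed the filter through the group where each was high. With the replicate number as a block (below), 1 of the 6 epithelial markers was higher and 3 lower, beside 22.4% and 22.5% of all genes. In that fit 2 of the 3 fibroblast markers were higher and 0 lower, and 1 of the 3 leukocyte markers was higher and 1 lower. The part of these markers in the annexin changes with TGFb1 was not tested.

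Anxa11, which binds the EF-hand proteins Pdcd6 and S100a6 and tethers RNA granules to lysosomes, measured 125, 139 and 116 CPM in untreated libraries and 81.4, 92.1 and 58.6 CPM with TGFb1. Every treated library was below every untreated one. The log2 change was -0.73 ± 0.18 (SE), a 1.66-fold decrease with an adjusted p of 0.046 (edgeR). Leaving out any 1 of the 6 libraries ended this call, with adjusted p between 0.0579 and 0.173 and a log2 change between -0.87 and -0.56.

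Of the 7 annexins that did not pass, Anxa6, an annexin with a core longer than that of the other members and a role in membrane repair and endosome traffic, was at 231, 195 and 144 CPM in untreated libraries and 326, 299.9 and 199 CPM with TGFb1. The groups overlapped, with a log2 change of 0.51 ± 0.24 and an adjusted p of 0.245 (edgeR). Anxa5 was at 1091, 1191 and 817 CPM untreated and 836, 862 and 669 CPM with TGFb1, with overlap, a log2 change of -0.41 ± 0.17 and an adjusted p of 0.201. Anxa1, Anxa2, Anxa3, Anxa4 and Anxa7 had log2 changes of -0.26 to 0.21 and adjusted p of 0.437 to 0.769, and of these 5 the groups stood apart for Anxa4 alone, at 115 to 123 CPM untreated and 126 to 132 CPM with TGFb1.

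Untreated and TGFb1 libraries of the same number deviated together from their group means, with correlations of 0.75 to 0.87 across genes with a mean log2 CPM of at least 3 (0.54 to 0.79 across all 15032 genes), and blocking on that number changed these calls. With the block, 7 of 9 annexins passed, 4 higher and 3 lower, and 44.9% of all genes passed, 22.4% higher and 22.5% lower. In that fit Anxa8 rose by 3.90 ± 0.21 on the log2 scale (adjusted p = 7.04e-05, edgeR) and Anxa6 rose by 0.51 (0.000362). Anxa11 fell by 0.75 (adjusted p = 0.000534), Anxa5 fell by 0.40 (0.00112) and Anxa1 fell by 0.25 (0.00502), each lower in 3 of 3 pairs. Anxa3 at 0.21 (adjusted p = 0.0082) and Anxa2 at 0.16 (0.0354) were higher in 3 of 3 pairs. Anxa4 (adjusted p = 0.174) and Anxa7 (0.193) did not pass with the block.

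**Figure D3:**
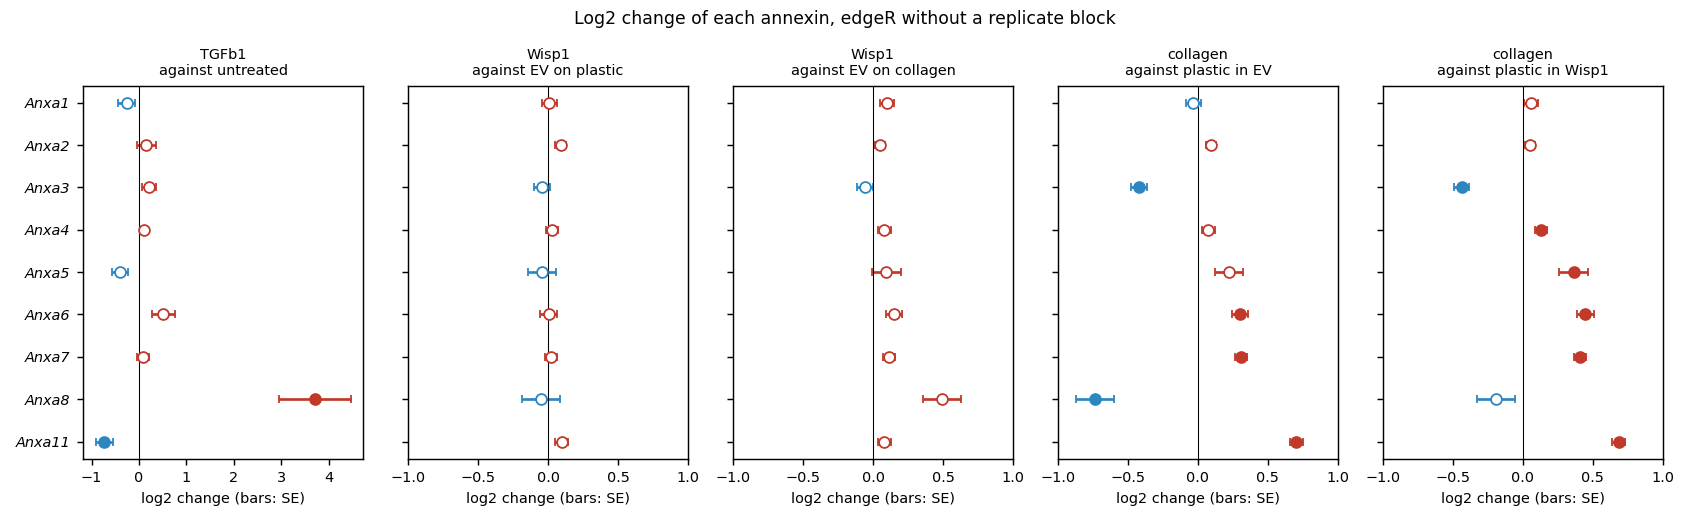
Log2 change of each annexin in 5 comparisons from the edgeR fits without a replicate block, with bars of 1 standard error, red for higher, blue for lower and filled where the adjusted p is under 0.05 (the TGFb1 panel has its own scale). Anxa8 lies at 3.71 with TGFb1, and Anxa11 lies at -0.73 with TGFb1 but at 0.70 and 0.69 on collagen.

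The 250 bases before the start of Anxa8 and Anxa11, the members called in opposite directions with TGFb1, are shown from RefSeq's promoter windows on GRCm38.p6, which is not the build named for the deposited counts. Anxa8 lies at chr14:34085729-34085978 on the plus strand and Anxa11 at chr14:25841905-25842154 on the plus strand. Capitals mark CAGAC, the core of the Smad-binding element, and GGGCGG, the GC box, each in either orientation (GTCTG and CCGCCC).
Anxa8: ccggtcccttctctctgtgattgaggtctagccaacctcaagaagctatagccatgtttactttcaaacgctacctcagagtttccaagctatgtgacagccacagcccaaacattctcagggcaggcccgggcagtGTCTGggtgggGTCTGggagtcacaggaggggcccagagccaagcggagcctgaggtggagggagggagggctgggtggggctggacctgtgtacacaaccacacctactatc
Anxa11: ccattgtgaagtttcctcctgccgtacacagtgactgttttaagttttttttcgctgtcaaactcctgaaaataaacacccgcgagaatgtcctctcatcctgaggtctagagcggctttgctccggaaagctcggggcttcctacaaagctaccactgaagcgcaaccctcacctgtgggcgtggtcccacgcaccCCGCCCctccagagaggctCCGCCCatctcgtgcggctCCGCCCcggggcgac
The Anxa8 window held 2 copies of the Smad-binding core and 0 GC boxes, and the Anxa11 window 0 and 3. Read on both strands, the Smad-binding core was present in 42.2% of 32851 mouse promoter windows of that length and the GC box in 32.7%, and no match of one overlaps a match of the other in the windows shown. Of the 7 annexins with a window in the table, the Smad-binding core also occurred in Anxa5 with 2 copies and in 1 of the 2 windows of Anxa4, members that were not called with TGFb1 without the block. The GC box also occurred in Anxa2 with 3 copies and in the 2 windows of Anxa7 with 1 and 4, members not called lower with TGFb1. The AP-1 site, TGANTCA, occurred in Anxa2 alone of the 7, beside 6.75% of all windows.

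The substrate was compared within each stable line. On collagen Anxa11, Anxa6 and Anxa7 rose and Anxa3 fell in both stable lines. In addition Anxa8 fell in the EV line, and Anxa5 and Anxa4 rose in the Wisp1 line. The EV line had 3 annexins higher and 2 lower of 9, with 36.5% of all genes called (19.2% higher, 17.3% lower). The Wisp1 line had 5 higher and 1 lower, with 40.4% of genes called (21.3% higher, 19.1% lower). Median log2 changes of the 9 were 0.09 in EV and 0.13 in Wisp1, against 0.0011 and 0.0098 over all genes, and groups did not overlap for 6 annexins in each line, beside 48% and 51.5% of genes. Of those 6, 4 were higher and 2 lower in EV (21.1% and 26.9% of all genes), and 5 higher and 1 lower in Wisp1 (22.8% and 28.7%). When all 18 libraries were fitted together, the calls of Anxa6 in EV (adjusted p = 0.326) and Wisp1 (0.0978), Anxa8 in EV (0.346) and Anxa4 (0.208) and Anxa5 (0.121) in Wisp1 were lost.

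Anxa11 measured 75.6, 77.1 and 82.4 CPM in EV on plastic and 128, 123 and 124 CPM in EV on collagen. In the Wisp1 line it was at 82.3, 79.9 and 89.2 CPM on plastic and 138, 129 and 130.3 CPM on collagen. All collagen libraries were above all plastic ones. The increase was 1.63-fold in EV (log2 0.70 ± 0.046, adjusted p = 1.51e-07) and 1.61-fold in Wisp1 (log2 0.69 ± 0.046, adjusted p = 2.17e-07, edgeR).

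Anxa7, also called synexin and known for promoting fusion of secretory granules, was at 125, 127 and 119.8 CPM in EV on plastic and 154, 152 and 144 CPM in EV on collagen. The Wisp1 line gave 122, 127 and 127 CPM on plastic and 170.1, 158 and 161 CPM on collagen. Neither line overlapped between substrates, with a 1.24-fold increase in EV (adjusted p = 0.00011) and 1.33-fold in Wisp1 (1.04e-05, edgeR). Anxa6 was at 111, 122 and 120.2 CPM in EV on plastic and 145, 142 and 139 CPM on collagen. In the Wisp1 line Anxa6 was at 111, 121 and 122 CPM on plastic and 172, 158 and 144 CPM on collagen, again without overlap. It rose 1.23-fold in EV (adjusted p = 0.00132) and 1.36-fold in Wisp1 (5.9e-05, edgeR).

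Anxa3 was the abundant member that was lower on collagen. It measured 690.1, 709.8 and 712 CPM in EV on plastic and 532, 519.8 and 497 CPM on collagen. The Wisp1 line had 681, 683 and 691 CPM on plastic and 543, 500.2 and 445 CPM on collagen. The groups stood apart in both lines, with a 1.34-fold decrease in EV (log2 -0.42 ± 0.057, adjusted p = 8.39e-05) and a 1.35-fold decrease in Wisp1 (adjusted p = 5.4e-05, edgeR).

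Anxa8 was at 21.6, 27.1 and 31.6 CPM in EV on plastic and at 14.1, 16.1 and 17.2 CPM in EV on collagen. The collagen libraries were all lower, a 1.66-fold decrease (log2 -0.73 ± 0.14, adjusted p = 0.00131, edgeR). In the Wisp1 line it was at 21.5, 26.9 and 29.2 CPM on plastic and 19.7, 23.7 and 23.7 CPM on collagen. There the groups overlapped and the log2 change was -0.19 (adjusted p = 0.295). Anxa5 was at 504, 544 and 519.9 CPM in Wisp1 on plastic and 773, 614 and 589 CPM on collagen, a 1.29-fold increase without overlap (adjusted p = 0.0133, edgeR). In EV it was at 525, 575 and 515 CPM on plastic and 696, 598 and 553 CPM on collagen, with overlap and a log2 change of 0.22 (adjusted p = 0.108).

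Anxa4, which binds epithelial membranes, moved from 144, 148 and 145 CPM to 166, 153 and 149.6 CPM in Wisp1, a 1.09-fold increase (adjusted p = 0.033, edgeR). Without Wisp1 on plastic replicate 1, 2 or 3 or Wisp1 on collagen replicate 1 that call was lost, at adjusted p of 0.0917, 0.055, 0.0881 and 0.145. In EV the log2 change of Anxa4 was 0.08 (adjusted p = 0.209). Anxa1 and Anxa2 did not pass in either line: Anxa1 had log2 changes of -0.03 and 0.06 (adjusted p = 0.66 and 0.399) and Anxa2 0.09 and 0.05 (0.0643 and 0.273). Anxa2 libraries in EV did not overlap, at 1162 to 1203 CPM on plastic and 1236 to 1246 CPM on collagen.

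Sums of the leukocyte markers were 8.6 to 13.9 CPM on plastic and 11.2 to 21.6 CPM on collagen, and those of the fibroblast markers 15.7 to 21.3 CPM and 24.1 to 33 CPM, the latter mostly Pdgfra. Among the markers tested, Krt8, Krt18 and Pdgfra rose and Cdh1 and Col1a2 fell on collagen in both lines, Krt14 and Cldn7 fell in EV, and Cd68 rose in Wisp1. Their part in the annexin changes was not tested. The collagen comparisons use the same 12 libraries as the Wisp1 comparisons below, so the 2 sets of values are not independent.

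Forced Wisp1 changed no annexin at the threshold without pairing, on either substrate. On plastic 0 of 9 passed (edgeR), where 0.0143% of all genes were called (2 of 13953, with 822 at an unadjusted p under 0.05, and 18 called by DESeq2). Log2 changes lay between -0.05 and 0.10 and adjusted p between 0.807 and 0.996. Anxa2 alone of the 9 did not overlap, at 1162 to 1203 CPM in EV and 1221 to 1312 CPM in Wisp1 (log2 0.09 ± 0.037), where 12.5% of all genes did not overlap, 6.5% being higher.

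On collagen 0 of 9 annexins passed (edgeR), with 0.0717% of all genes called (10 genes, 707 at an unadjusted p under 0.05, and 40 called by DESeq2). Anxa8 was at 14.1, 16.1 and 17.2 CPM in EV and 19.7, 23.7 and 23.7 CPM in Wisp1. The groups did not overlap, and the 1.41-fold difference (log2 0.49 ± 0.14) had an unadjusted p of 0.00355 and an adjusted p of 0.59. Anxa2, Anxa7 and Anxa11 also had every Wisp1 library above every EV library, with log2 differences of 0.05, 0.12 and 0.08. These 4 higher members of 9 stand beside 9.42% of genes without overlap, 5.51% being higher.

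EV and Wisp1 libraries of the same number on the same substrate also deviated together, with correlations of 0.34 to 0.80 across genes with a mean log2 CPM of at least 3. Across all 15032 genes the correlations were 0.08 to 0.36, so the pairing of these libraries rests on that choice of genes. With the replicate number as a block within each substrate, 4 of 9 annexins were higher in Wisp1 on collagen, where 2.57% of all genes passed (1.63% higher). Anxa8 rose by 0.50 ± 0.046 on the log2 scale (adjusted p = 5.73e-06, edgeR), higher in 3 of 3 pairs by 0.49, 0.56 and 0.46. Anxa6 at 0.15 (adjusted p = 0.0115), Anxa1 at 0.10 (0.0333) and Anxa7 at 0.12 (0.0418) were the others. With 1 block for each number over both substrates, 1 of 9 passed on collagen, Anxa8 (adjusted p = 0.00374, edgeR), beside 0.129% of genes (0.0932% higher). That block also joins libraries of the same number between substrates, which did not deviate together as pairs. On plastic 0 of 9 passed with the block within each substrate, where 3.15% of genes did (edgeR), the nearest being Anxa11 (adjusted p = 0.0772) and Anxa2 (0.0776).

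Whether Wisp1 acted differently on the 2 substrates was tested as an interaction. The Wisp1 contrast was itself unequal, with a log2 change of Wisp1 of 4.21 on plastic and 6.14 on collagen. In EV cells Wisp1 averaged 51.7 CPM on plastic and 15.3 CPM on collagen, and in Wisp1 cells 957 and 1088 CPM. The part of this inequality in the annexin values was not tested. Without the block 0 of 9 annexins and 0% of all genes passed (edgeR, with 410 genes at an unadjusted p under 0.05, and 1 gene called by DESeq2). Anxa8 had a difference of 0.54 ± 0.19 on the log2 scale, with an unadjusted p of 0.0153 and an adjusted p of 0.973. With the replicate block within each substrate, Anxa8 was the 1 annexin that passed, at 0.55 ± 0.065 (adjusted p = 0.000855, edgeR), where 0.502% of genes passed and 0.208% in the higher direction. The paired log2 ratios of Wisp1 over EV behind this were 0.49, 0.56 and 0.46 on collagen and -0.0035, -0.010 and -0.12 on plastic.

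**Figure D4:**
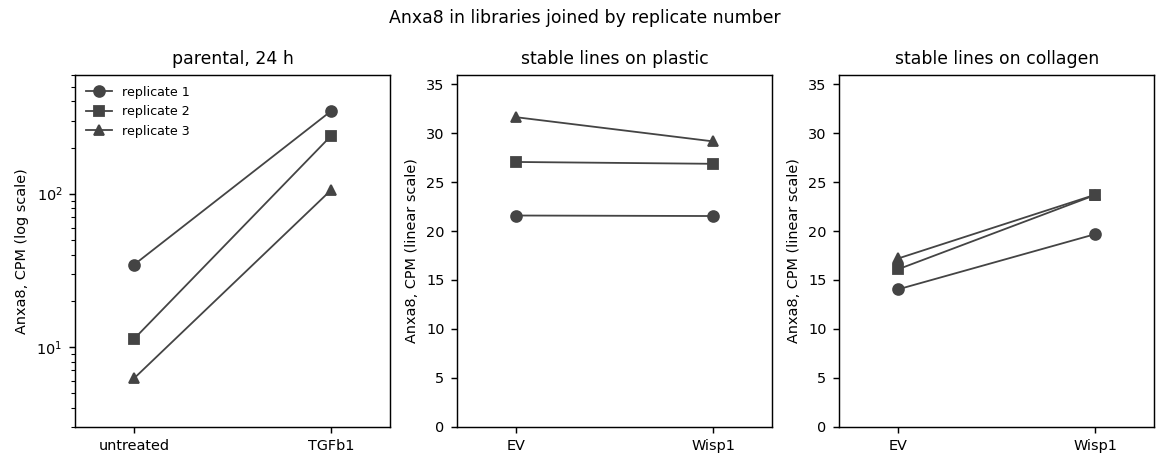
Anxa8 in CPM for libraries that share a replicate number, joined by lines, for untreated and TGFb1 (log axis) and for EV and Wisp1 on plastic and on collagen (linear axes). All 3 pairs are higher with TGFb1 and all 3 are higher with Wisp1 on collagen, while the 3 plastic pairs differ by -0.0035 to -0.12 on the log2 scale.

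Genes that work with annexins were counted from fixed lists. Of 9 EF-hand proteins that bind annexin tails, 8 could be tested, S100b being too low. With TGFb1, S100a4 fell 1.78-fold (1083 to 616 CPM, adjusted p = 0.0273) and S100a6, a partner of Anxa11, fell 1.52-fold (2223 to 1485 CPM, 0.0309, edgeR), 2 lower and 0 higher, beside 4.92% of all genes lower. The median log2 change of the 8 was -0.20. With the replicate block 5 were lower and 1 higher, beside 22.5% and 22.4% of genes. S100a10, the partner of Anxa2, was at 349.9 CPM in untreated cells and 301.7 CPM with TGFb1 (log2 -0.23, adjusted p = 0.37).

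On collagen 5 of the 8 EF-hand genes rose in EV and 4 rose in Wisp1, and 0 fell, beside 19.2% and 21.3% of all genes higher and 17.3% and 19.1% lower. S100a1 rose 1.45-fold in EV (adjusted p = 6.87e-05) and 1.38-fold in Wisp1 (0.000227, edgeR). S100a6 rose 1.17-fold (adjusted p = 0.00092) and 1.18-fold (0.000508), so it moved in the direction of Anxa11 on collagen as it did with TGFb1. S100a4 had the same directions, averaging 743 CPM on plastic and 1140 CPM on collagen in EV and 749 and 1124 CPM in Wisp1. By mean, S100a1, S100a10 and S100a11 had them too, with log2 changes of -0.24, -0.23 and -0.17 with TGFb1 that did not pass. The direction was thus not particular to the partner of Anxa11. Sri averaged higher with TGFb1 (log2 0.34, not passing), and Gca averaged lower on collagen in both lines. Pdcd6, the other named partner of Anxa11, had a log2 change of 0.02 with TGFb1 (adjusted p = 0.95, edgeR). On plastic and collagen Pdcd6 averaged 76.1 and 77.7 CPM in EV and 77.3 and 78.1 CPM in Wisp1. Sri, the calcium-binding protein sorcin that binds Anxa7, rose 1.15-fold (adjusted p = 0.00214) and 1.17-fold (0.000715). S100a10 rose 1.14-fold in EV (412 to 459 CPM, adjusted p = 0.00557) and was at 413 and 438 CPM in Wisp1 (0.058). S100a11, a partner of Anxa1, averaged 421 to 502 CPM in the 6 groups and passed in none of the comparisons without a block.

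The receptors through which released Anxa1 signals were nearly absent from these cells. Fpr1 had 0 to 1 counts and Fpr2 0 to 2 counts per library, and Fpr3, Fpr-rs3 and Fpr-rs4 had 0 counts in every library. Of the 9 genes on that list, 1 could be tested: Pla2g4a, the cytosolic phospholipase A2, fell 1.23-fold on collagen in EV (188 to 151 CPM, adjusted p = 0.000143) and 1.14-fold in Wisp1 (0.00324, edgeR). Over all genes 17.3% were lower in EV and 19.1% in Wisp1. With TGFb1 Pla2g4a went the other way, at 176 CPM untreated and 281 CPM treated, and did not pass (log2 0.66, adjusted p = 0.218, edgeR). With the replicate block it was called higher (log2 0.65), beside 22.4% of all genes.

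Plasma membrane repair genes, of which 21 of 24 could be tested, included 1 call with TGFb1 (11.1% of all genes), 10 on collagen in EV (36.5%) and 11 in Wisp1 (40.4%). With TGFb1, Capn2, a calpain subunit, rose 1.3-fold (253 to 332 CPM, adjusted p = 0.0448) and the other 20 did not pass. With the replicate block 7 were higher and 6 lower, beside 22.4% and 22.5% of genes. On collagen 8 rose and 2 fell in EV, and 10 rose and 1 fell in Wisp1, beside 19.2% higher and 17.3% lower over all genes in EV and 21.3% and 19.1% in Wisp1. Myof, the ferlin myoferlin, rose 1.52-fold in EV (784.7 to 1171 CPM, adjusted p = 2.61e-07) and 1.49-fold in Wisp1 (4.6e-07, edgeR). Lgals3, a galectin recruited to damaged membranes, rose 1.69-fold (157 to 259.9 CPM, adjusted p = 9.68e-07) and 1.89-fold (2.15e-07). Ahnak2 rose 1.86-fold (adjusted p = 6.61e-06) and 1.96-fold (3.97e-06). The genes that fell, named after their values were seen, were the caveolar genes Cav1 (75.4 to 46.8 CPM in EV, 75.3 to 54.3 CPM in Wisp1) and, in EV, Ptrf (400.7 to 354.7 CPM).

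Genes that expose or read phosphatidylserine, the ligand of Anxa5, numbered 15 tested of 19. With TGFb1 2 were higher and 1 lower, beside 6.14% and 4.92% of all genes. Plscr3, a phospholipid scramblase, rose 1.54-fold (63.5 to 98.6 CPM, adjusted p = 0.0131) and Atp11a, a flippase, rose 2.05-fold (241 to 500.4 CPM, 0.0151, edgeR). Mertk, an efferocytosis receptor, fell from 0.558 to 0.0869 CPM (adjusted p = 0.014). It passed the filter through the untreated libraries, at 42 to 47 counts against 4 to 12 with TGFb1. With the block 3 were higher and 6 lower, beside 22.4% and 22.5% of genes. On collagen 7 rose in EV (19.2% of all genes) and 6 in Wisp1 (21.3%), and 0 fell (17.3% and 19.1%). Ano6, the calcium-activated scramblase, rose 1.33-fold (adjusted p = 2.19e-05) and 1.31-fold (3.26e-05), and Mfge8, a secreted phosphatidylserine-binding bridge, 1.49-fold (2.93e-05) and 1.55-fold (1.29e-05, edgeR). Plscr1 was the third by adjusted p in EV at 1.16-fold (0.000367), and Plscr4 in Wisp1 at 1.73-fold (0.000393).

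Copines, extended synaptotagmins and related C2-domain proteins bind the same lipids in a calcium-dependent way through another fold, and 11 of 20 could be tested with TGFb1 and 9 in the stable lines. With TGFb1 3 were higher and 1 lower (6.14% and 4.92% of all genes), and with the block 7 and 2 (22.4% and 22.5%). Esyt3 rose 3.63-fold (3.78 to 13.9 CPM, adjusted p = 0.00647, edgeR) while Esyt2, named after its values were seen, fell 1.45-fold (426 to 297 CPM, 0.0455). Sytl2 rose from 0.0493 to 0.337 CPM (adjusted p = 0.0152), at 2 to 6 counts per untreated library against 23 to 33 with TGFb1. Rph3a passed at 2 to 3 counts per untreated library against 26 to 500 with TGFb1 (adjusted p = 0.0183). Both passed the filter only through the TGFb1 libraries, where they were high, so their place among the 3 higher genes is no independent result. On collagen 3 rose and 1 fell in each line, 4 of 9 called beside 36.5% of all genes in EV and 40.4% in Wisp1. Cpne2 rose 1.74-fold in EV (adjusted p = 6.74e-07) and 1.55-fold in Wisp1 (5.82e-06), and Esyt2 1.46-fold in both (8.81e-07 and 8.36e-07, edgeR). Cpne8 fell 1.15-fold in EV (adjusted p = 0.00104), Esyt3 rose 1.54-fold in Wisp1 (0.0184), and the 1 gene that fell there, named after its values were seen, was Cpne8 (0.0297). In the Wisp1 comparisons on plastic and on collagen, 0 genes of any of these 5 lists passed without a block (edgeR). With the block within each substrate, the calls, all higher in Wisp1, were Ehd1, Ehd2, Syt7, Axl, Plscr2 and Cpne2 on plastic (log2 0.14 to 0.22) and Cav1 (0.21) and Lgals3 (0.15) on collagen, named after their values were seen. On plastic these were 3 of 21 repair, 2 of 15 phosphatidylserine and 1 of 9 C2-domain genes tested, beside 3.15% of all genes called. On collagen they were 2 of 21 repair genes and 0 of the other lists, beside 2.57% of all genes.

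Anxa9, outside the list of 9, fell 2.21-fold with TGFb1 (7.97 ± 0.824 to 3.65 ± 0.426 CPM, adjusted p = 0.0144, edgeR) and rose on collagen in EV (4.65 ± 0.139 to 5.81 ± 0.503 CPM, 0.0167) and in Wisp1 (5.05 ± 0.323 to 6.27 ± 0.714 CPM, 0.0165). Its directions were those of Anxa11 in these 3 comparisons, at a far lower level.

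Over the 6 groups, the range of the mean log2 level was 3.94 for Anxa8, wider than for 98.3% of genes, then 1.19 for Anxa6 and 0.97 for Anxa5, down to 0.18 for Anxa2, wider than for 3.67% of genes. The genes whose centred log2 levels over the 18 libraries lay nearest to those of Anxa8, by root mean square difference among 9733 genes, were Tnc (0.47), Gm22 (0.56) and Igfbp7 (0.60), where the median gene was at 1.43. Tnc, the matrix protein tenascin C, was at 5.51 ± 3.00 CPM in untreated cells, 74.0 ± 22.4 CPM with TGFb1 and 10.4 to 12.1 CPM in the stable lines. Igfbp7 was at 46.9 ± 20.9 CPM untreated and 199.8 ± 82.6 CPM with TGFb1. Nearest to Anxa6 were Epb4.9 (0.097), Gsdmd (0.10) and Tspan14 (0.12), where the median gene was at 0.52. Gsdmd, the pore-forming gasdermin D, was at 23.2 ± 4.95 CPM untreated, 36.8 ± 8.35 CPM with TGFb1, 15.6 ± 0.765 CPM in EV on plastic and 20.1 ± 2.03 CPM in EV on collagen. This measure runs over the 18 libraries of all 6 groups, so differences between groups enter it, and it is a description.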

How the data were processed

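The values are gene counts of 18 poly(A) libraries (TruSeq stranded mRNA, per the labels' protocols). Tools listed in the submitters' processing notes, without their roles, are BWA, STAR, CASAVA, HTSeq, limma and R 3.2.4, and the build is mm9. No source used here gives the annotation or the strand setting. The authors deposited raw counts per gene symbol, 1 table per library. Entries that name no gene stayed out of library sizes: no-feature reads were 10.2% to 13.5% of all reads counted, ambiguous 1.02% to 2.08% and unaligned 1.84% to 3.47%. Gene totals of 37552858 to 94401699 per library limit counting error only.

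Tests used edgeR 4.0.16 in R 4.3.3 (filterByExpr, TMM, robust quasi-likelihood), with Benjamini-Hochberg adjustment over all genes and a threshold of 0.05. TGFb1 was tested in the 6 parental libraries and the other comparisons in the 12 stable-line libraries. A standard error is the size of the log2 change divided by the square root of F. CPM used TMM library sizes over all 18 libraries. Alternatives were no filter, a filter of 5 CPM in 3 libraries, DESeq2 1.42.0, replicate blocks, all 18 libraries, only the 6 libraries compared, and leaving out each library. Every listed annexin is named, with the 3 called genes of smallest adjusted p per partner list and comparison, S100a10, S100a11, Fpr1 and Fpr2, and the 3 genes nearest in pattern to the 2 annexins of widest range. The members and lists were chosen with earlier results of these data known.

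Replicate numbers were taken as pairs where same-numbered libraries deviated together, with a correlation over 0.1 in every pair. Among 9734 genes with a mean log2 CPM of at least 3 the correlations were 0.87, 0.75 and 0.83 for untreated and TGFb1, 0.34, 0.55 and 0.52 for EV and Wisp1 on plastic and 0.80, 0.52 and 0.63 on collagen. Over all 15032 genes they were 0.79, 0.54 and 0.77, then 0.10, 0.15 and 0.14 on plastic and 0.36, 0.08 and 0.25 on collagen, so the stable-line pairs did not all pass there, and the gene set was chosen after both were seen. Between substrates the values were -0.28 to 0.44 and the numbers were not treated as pairs. Parental libraries of the same number also share a code in their labels, whose meaning the labels do not give.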

Additional observations from a re-analysis of the deposited data

Results flagged for a closer look

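The response of Anxa8 to forced Wisp1 differed between substrates when replicate numbers were blocked within each substrate, by 0.549 on the log2 scale (0.55 ± 0.065, adjusted p = 0.000855, edgeR). Anxa8 was higher with Wisp1 in 3 of 3 collagen pairs and in 0 of 3 plastic pairs. Without the block the same difference was 0.54 ± 0.19 with an adjusted p of 0.973. On plastic and collagen Anxa8 averaged 26.8 and 15.8 CPM in EV and 25.9 and 22.4 CPM in Wisp1. The log2 change of Wisp1 itself was 4.21 on plastic and 6.14 on collagen. The pairing rests on a choice of genes made after both sets were seen, with correlations as low as 0.08 across all 15032 genes.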

How the results depend on the processing

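The replicate block changed the most annexin calls: with it, called annexins went from 2 to 7 with TGFb1, and from 0 to 1 for Wisp1 on collagen (0 to 4 with the block within each substrate, and 0 to 1 for the interaction). Beside these, all genes called went from 11.1% to 44.9% with TGFb1. With the block within each substrate, 2.57% of genes were called for Wisp1 on collagen and 0.502% for the interaction. With 1 block for each number, which also joins libraries between substrates, Wisp1 on collagen went from 0.0717% to 0.129% of genes. The block also called Anxa8 on collagen in the Wisp1 line (log2 -0.18, adjusted p = 0.0239), where the numbers are not pairs, and left the other collagen calls of annexins in place. Fitting all 18 libraries called 2601 genes higher and 2264 lower of 15032 with TGFb1. On collagen it called 816 higher and 813 lower in EV, and 991 higher and 1080 lower in Wisp1. Of the annexins it called 4 with TGFb1 (adding Anxa5 at 0.0394 and Anxa6 at 0.0174) and 3 in each collagen comparison, losing 2 calls in EV and 3 in Wisp1. Anxa5 in Wisp1 was also lost without a filter (0.0512), Anxa4 with only the 6 libraries compared (0.0638), while DESeq2 added Anxa2 in EV (0.0272) and leaving out EV on collagen replicate 3 added Anxa5 in EV (0.0449). Leaving out 1 library gave 0 to 1 called annexins with TGFb1, 5 to 6 in each collagen comparison and 0 for Wisp1 and the interaction. No called annexin changed direction. Leaving out 1 library did turn the sign of log2 changes that had not passed, whose ranges were -0.024 to 0.32 (Anxa2) and -0.026 to 0.16 (Anxa7) with TGFb1, and -0.074 to 0.0098 for Anxa1 on collagen in EV. For Wisp1 on plastic they were -0.013 to 0.034 (Anxa1), -0.081 to 0.0049 (Anxa5), -0.030 to 0.040 (Anxa6), -0.010 to 0.035 (Anxa7) and -0.17 to 0.077 (Anxa8). For Wisp1 on collagen they were -0.13 to 0.011 (Anxa3) and -0.034 to 0.20 (Anxa5), and for the interaction -0.087 to 0.052 (Anxa3) and -0.048 to 0.027 (Anxa11).

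Counts of all genes called moved further. With TGFb1 the 1645 became 6672 with the block, 2711 by DESeq2, 4865 with all 18 libraries and 380 to 1430 with 1 library left out. For Wisp1 on plastic the 2 became 1 with the stricter filter or all 18 libraries, 0 with only the 6 libraries, 18 by DESeq2, 440 with the block within each substrate and 1 to 2 with 1 library left out. For Wisp1 on collagen the 10 became 32 without a filter, 2 with the stricter filter, 18 with the block, 40 by DESeq2, 4 with all 18 libraries, 2 with only the 6, 358 with the block within each substrate and 5 to 11 with 1 left out. For the interaction the 0 became 1 by DESeq2, 70 with the block within each substrate and 0 to 1 with 1 left out. On collagen the 5095 in EV became 1629 and the 5641 in Wisp1 became 2071 with all 18 libraries, and 3849 to 4598 and 4450 to 5443 with 1 left out. The summed annexin level of Wisp1 on plastic was 3832 CPM on raw library totals, against 3950.2 CPM. Of raw totals, the annexins took 0.499%, 0.470% and 0.382% in untreated libraries and 0.510%, 0.459% and 0.379% with TGFb1. The order of the parental means of the summed level therefore depended on the scaling.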
